A study of Homo sapiens with 6 samples.

Results

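The genes that write, read and erase cytosine methylation were followed in HL-60 cells, an established human myeloid leukaemia line that the labels call promyelocyte. The 9 genes are UHRF1, UHRF2, DNMT1, DNMT3A, DNMT3B, TET1, TET2, TET3 and TDG, chosen by symbol, and each had a row among the 17911 gene rows of the deposited expression table. 3 libraries came from cells exposed to 10 uM amiodarone for 24 h and 3 came from control cells, for which the labels do not say whether a vehicle was given. Amiodarone is a cationic amphiphilic antiarrhythmic drug, and the series title presents it as an activator of the mitochondrial deacetylase SIRT3 in leukaemia. Nothing in the labels tells whether replicates were separate cultures. The p-values therefore rest on a spread that may be technical only. RNA alone was measured, so no value here is a DNA methylation level or a protein level.

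Cytosine methylation at CpG sites is copied after each round of DNA replication. UHRF1, a ubiquitin ligase, binds CpG sites that carry methyl groups on the old strand only and marks histone H3 nearby, and the maintenance methyltransferase DNMT1 is recruited to that mark and methylates the new strand. DNMT3A and DNMT3B methylate sites that had no mark before. The TET enzymes oxidise methylcytosine, and TDG, a DNA glycosylase, removes the most oxidised forms so that base excision repair can put back an unmodified cytosine. DNMT3A and TET2 are among the genes most often mutated in acute myeloid leukaemia, and UHRF1 and DNMT1 transcripts are known to be most abundant in cells that are replicating DNA.

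All 9 genes had promoter windows in the RefSeq table (GRCh38.p14), 20 windows in all, each reaching from 250 bases before a transcript start to 50 after it. Letters bound by E2F factors, which control many S-phase genes, were searched for as TTTCGCGC, TTTGGCGC, TTTCCCGC or TTTGCCGC on both strands. They occurred in 3 of the 20 windows, which belong to UHRF1 and DNMT1, and in 3.31% of all 35116 windows of the table. Each of the searched sequences holds a CG, and the share over all windows was not matched for CpG content. No match was found in the 17 other windows, which include 1 of the 3 UHRF1 windows and all windows of UHRF2, DNMT3A, DNMT3B, the TET genes and TDG. The CCAAT box, also searched on both strands, was present in 7 of the 20 windows, among them the same 2 windows of UHRF1, and in 34.6% of all windows. TTTGAA, the letters of the cell cycle homology region, was found on either strand in 2 of the 20 windows, 1 of DNMT3A and 1 of TET2, and in 15.2% of all windows. No matches of different motifs overlapped in these windows. Windows of the same gene can overlap and are not independent, and a CCAAT box of TET1 was counted in both windows that share it. A match describes letters and is not evidence that a factor binds there. The bases before a RefSeq start of the paralogues UHRF1 and UHRF2 are printed because their transcripts moved in opposite directions. They lie at chr19:4909251-4909500 for UHRF1 and at chr9:6412949-6413198 for UHRF2, each on the plus strand and 5′ to 3′, with the CCAAT box and the E2F letters in capitals.
UHRF1: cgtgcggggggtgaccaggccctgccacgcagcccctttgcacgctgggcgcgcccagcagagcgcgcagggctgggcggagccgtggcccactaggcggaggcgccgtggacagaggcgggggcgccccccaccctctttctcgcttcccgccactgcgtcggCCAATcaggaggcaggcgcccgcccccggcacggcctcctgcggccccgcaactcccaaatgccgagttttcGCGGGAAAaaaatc
UHRF2: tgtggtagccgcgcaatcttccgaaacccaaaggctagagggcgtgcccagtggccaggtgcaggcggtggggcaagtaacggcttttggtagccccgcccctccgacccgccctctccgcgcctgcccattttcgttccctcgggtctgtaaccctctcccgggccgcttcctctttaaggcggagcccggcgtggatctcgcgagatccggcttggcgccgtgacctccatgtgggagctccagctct

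The 3 stretches of 30 bases that hold the E2F letters, in capitals and read along the gene's strand, are printed because they belong to the 2 members with the largest decreases on log2(value + 1). They lie at chr19:4909476-4909505 and chr19:4909973-4910002 on the plus strand for UHRF1 and at chr19:10194937-10194966 on the minus strand for DNMT1, where the match spans the transcript start. By ratio of means DNMT3B, whose window holds no match, fell further (2.54-fold) than DNMT1 (2.26-fold).
UHRF1 at its outer RefSeq start: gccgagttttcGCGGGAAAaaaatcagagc
UHRF1 at its next RefSeq start: cccgagcccgaTTTCGCGCgccctgagttc
DNMT1 at its RefSeq start: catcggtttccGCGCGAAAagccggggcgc

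CpG dinucleotides are the sites these proteins act on, and they were counted in the same windows. The windows of UHRF1 held 36, 40 and 46 of them, that of DNMT1 30 and that of UHRF2 26, where the median over all windows was 14. The only window listed for DNMT3B held 3. Those of DNMT3A held 18 to 46, those of TET3 45 and 33 and those of TET2 13 and 35. That of TDG held 22 and those of TET1 held 6 to 11. Over all windows the lower and upper quartiles were 4 and 28. The starts in these windows are RefSeq starts, and several, among them all those of UHRF1, DNMT1 and DNMT3B, lie inside the GENCODE 29 gene, downstream of its outermost start.

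The values are not counts and behave like RPKM, that is, reads scaled to gene length and library depth. The whole steps between low values, read as RPKM, give an estimated depth of 16.3 to 16.7 M reads in amiodarone libraries and 18.3 to 18.4 M in controls. The limma test on log2(value + 1) covered the 11445 genes that reached 1 in 3 or more of the 6 libraries. It called 44.8% of them lower and 33.5% higher after amiodarone at a Benjamini-Hochberg adjusted p under 0.05. The median log2 fold change of all tested genes was -0.06. The cells expressed the promyelocyte genes MPO, ELANE, PRTN3, AZU1 and CTSG in every library. 6 markers of T, B, red blood, epithelial, stromal and liver cells summed to 0.61 to 1 in amiodarone libraries and 1.25 to 1.57 in controls.

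The transcripts of the methylation genes moved in both directions, also within families. UHRF1 and DNMT1, the pair that copies methylation at replication, were lower after amiodarone, as were DNMT3B and, by less, TET3. UHRF2, DNMT3A, TET2 and TDG were higher by smaller amounts. 8 of the 9 members passed the filter, and all 8 were called, 4 lower and 4 higher, where 78.3% of all tested genes were called in either direction. The count of calls is thus near the background and is no result about these genes. 2 of the 8, UHRF1 and DNMT1, fell by at least 2-fold on log2(value + 1), as did 2.60% of all tested genes. None of the 8 rose that far, as 2.55% of all tested genes did. The groups did not overlap for any of the 8, as for 79.3% of all tested genes. The median log2 fold change of the 8 was -0.04, close to that of all genes. In bulk RNA, fewer cells of a type and less RNA per cell cannot be told apart.

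**Figure D1:**
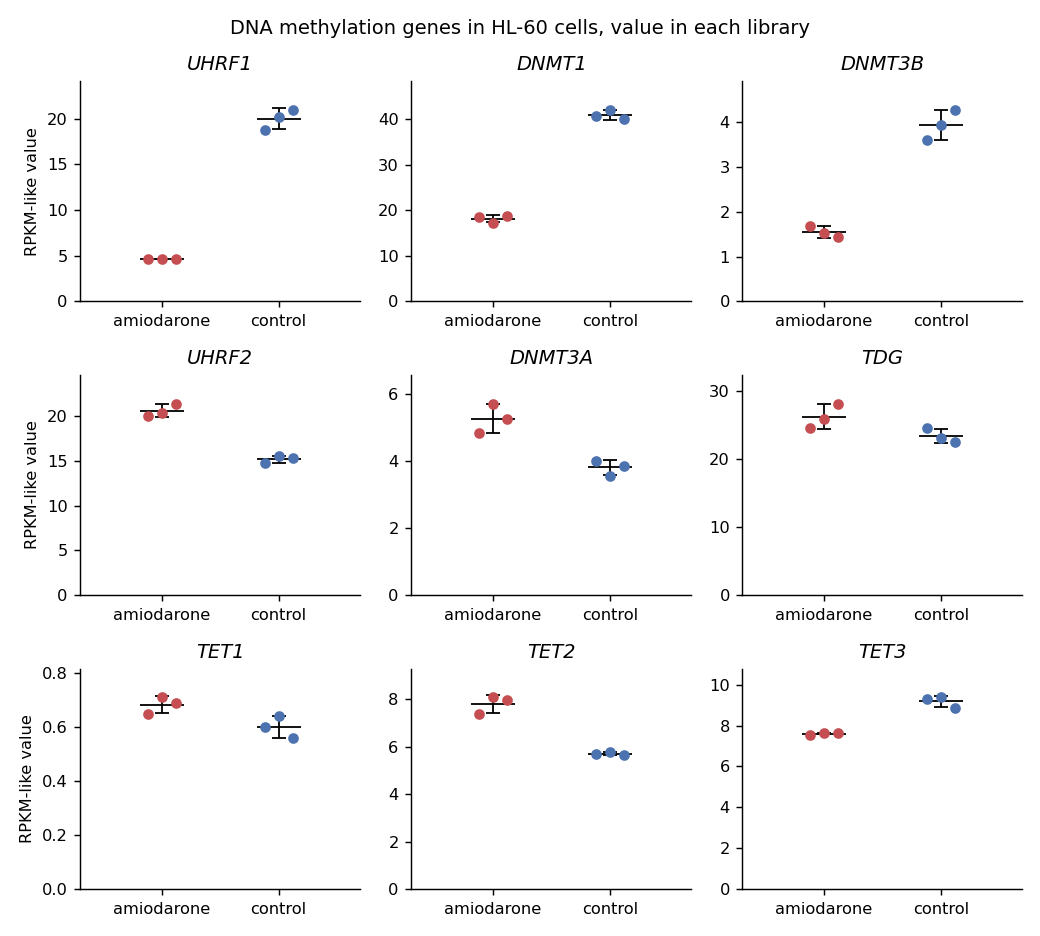
Value of each member (RPKM-like, vertical axis from 0, own scale per gene) in the 3 amiodarone libraries (red points, left) and the 3 control libraries (blue points, right), with the mean and SD in black. UHRF1, DNMT1 and DNMT3B were clearly lower after amiodarone, whereas TDG groups nearly touched.

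UHRF1, which reads hemimethylated CpG sites, changed most. It had 4.65, 4.68 and 4.59 in amiodarone libraries, against 18.80, 20.26 and 21.00 in controls. Every amiodarone library was far below every control, and the amiodarone libraries lay within 0.09 of each other. The group means were 4.64 ± 0.0458 after amiodarone and 20.0 ± 1.12 in controls (SD, n = 3 each), a 4.31-fold lower level. The log2 fold change was -1.90 (SE 0.049; limma, adjusted p = 9.84e-11) and ranked number 6 of 11445 from the most negative. UHRF1 lies on chromosome 19 at 4903080 to 4962154 (GENCODE 29, GRCh38), and no other annotated gene shares its exonic bases.

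UHRF2, its paralogue, which shares the domain plan of UHRF1, went the other way. It had 20.09, 20.37 and 21.44 after amiodarone, against 14.79, 15.54 and 15.31 in controls. The groups stood apart with little spread inside each. Means were 20.6 ± 0.712 after amiodarone and 15.2 ± 0.384 in controls (SD, n = 3 each), a ratio of 1.36 and a log2 fold change of 0.42 (SE 0.040; limma, adjusted p = 2.64e-06). A processed pseudogene of UHRF2 is annotated elsewhere in the genome, as are ones of TET1 and TDG, so the assignment of some of their reads is uncertain.

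UHRF1 made up 18.8%, 18.7% and 17.6% of the summed UHRF1 and UHRF2 values in the amiodarone libraries, against 56.0%, 56.6% and 57.8% in controls. The more abundant member of the pair was thus UHRF2 in each amiodarone library and UHRF1 in each control library. The sum itself averaged 25.3 ± 0.673 after amiodarone and 35.2 ± 1.45 in controls (SD, n = 3 each). On the log2(value + 1) scale, the ratio of UHRF1 to UHRF2 was -1.90, -1.91 and -2.01 after amiodarone and 0.33, 0.36 and 0.43 in controls. The difference of -2.31 does not depend on how libraries are scaled apart from the pseudocount. The exact 2-sided permutation test gave p = 0.1, the smallest that 3 against 3 libraries allow, so no ratio can pass 0.05 here.

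DNMT1, which copies methylation to the new strand, had the highest level of the 9 genes in controls. It had 18.42, 17.26 and 18.65 after amiodarone, against 40.70, 42.05 and 40.01 in controls. No amiodarone library came near the control range. The group means were 18.1 ± 0.745 after amiodarone and 40.9 ± 1.04 in controls (SD, n = 3 each), a 2.26-fold lower level, with a log2 fold change of -1.13 (SE 0.038; limma, adjusted p = 7.41e-10). It ranked number 174 from the most negative. The gene spans bases 10133345 to 10231286 of chromosome 19, minus strand, and 0.8% of its exonic bases are shared with S1PR2 on the same strand.

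DNMT3B, a writer of new marks that is most active in early embryonic cells, fell and was low in both groups. Its values were 1.69, 1.52 and 1.44 after amiodarone, against 3.61, 3.93 and 4.28 in controls. The groups did not overlap, and the highest amiodarone value was well under the lowest control. Means were 1.55 ± 0.128 after amiodarone and 3.94 ± 0.335 in controls (SD, n = 3 each), a 2.54-fold lower level. The log2 fold change of -0.95 (SE 0.072; limma, adjusted p = 3.80e-07) understates this ratio, as it does for all low genes. At the estimated depth, and with its longest transcript taken as its length, its values stand for roughly 102 to 341 reads per library. These read numbers may be too high.

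DNMT3A, the other writer of new marks, was higher. It had 4.83, 5.72 and 5.27 after amiodarone, against 4.01, 3.56 and 3.87 in controls. All amiodarone libraries exceeded all controls, but replicates varied more than for most members. Means were 5.27 ± 0.445 after amiodarone and 3.81 ± 0.23 in controls (SD, n = 3 each), with a log2 fold change of 0.38 (SE 0.067; limma, adjusted p = 3.16e-04).

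Summed over the 3 methyltransferase genes, the value was 24.9, 24.5 and 25.4 after amiodarone, against 48.3, 49.5 and 48.2 in controls. DNMT1 held 72.6% ± 1.88 of that sum after amiodarone and 84.1% ± 0.913 in controls (SD, n = 3 each). The share of DNMT3A was 21.2% ± 2.02 after amiodarone and 7.84% ± 0.582 in controls, and that of DNMT3B 6.22% ± 0.549 after amiodarone and 8.10% ± 0.722 in controls. None of these shares overlapped between the groups. DNMT3A and DNMT3B had overlapping values in controls, whereas DNMT3A was the higher of the pair in every amiodarone library. The log2 ratio of DNMT3B to DNMT3A was -1.30 ± 0.160 after amiodarone and 0.04 ± 0.135 in controls, a difference of -1.33, and that of DNMT1 to DNMT3A was 1.61 ± 0.151 after amiodarone and 3.12 ± 0.10 in controls, a difference of -1.51 (SD, n = 3 each; exact permutation p = 0.1 for both).

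**Figure D2:**
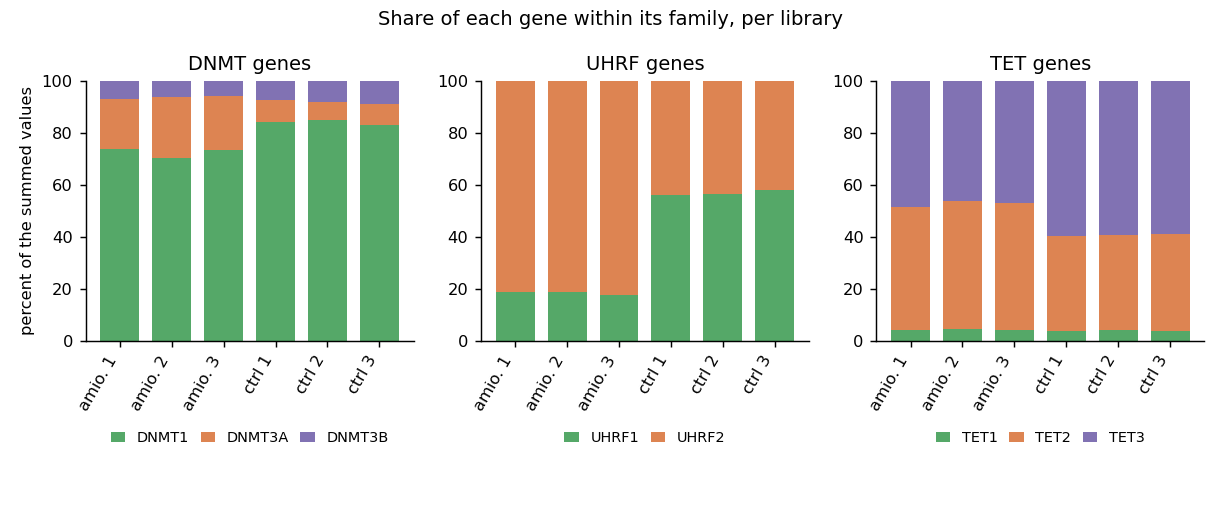
Percent of the summed values of each family (vertical axis) held by each gene, in the 3 amiodarone (amio., left) and 3 control (ctrl, right) libraries. UHRF1 held 17.6% to 18.8% of the UHRF sum after amiodarone and 56.0% to 57.8% in controls, and TET2 held a larger share of the TET sum after amiodarone than in controls.

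Among the erasers, TET2, the TET enzyme best known from myeloid leukaemia, was higher. It had 7.40, 8.09 and 7.96 after amiodarone, against 5.71, 5.77 and 5.65 in controls. The controls were nearly identical, and each amiodarone library was above them. Means were 7.82 ± 0.367 after amiodarone and 5.71 ± 0.0600 in controls (SD, n = 3 each), with a log2 fold change of 0.39 (SE 0.050; limma, adjusted p = 2.77e-05).

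TET3, the most abundant TET gene in controls, was lower. It had 7.56, 7.62 and 7.64 after amiodarone, against 9.28, 9.38 and 8.88 in controls. The shift was small next to those of UHRF1 and DNMT1 yet clear of the spread. Means were 7.61 ± 0.0416 after amiodarone and 9.18 ± 0.265 in controls (SD, n = 3 each), with a log2 fold change of -0.24 (SE 0.045; limma, adjusted p = 4.52e-04).

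TET1 was barely expressed, at 0.65, 0.71 and 0.69 after amiodarone, against 0.60, 0.64 and 0.56 in controls. It did not pass the filter. With its longest transcript taken as its length, its value stands for about 96 to 110 reads per library, which may be too high. In a fit without the filter its log2 fold change was 0.07 (limma, adjusted p = 0.166). The lowest amiodarone library was just above the highest control.

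The TET values together came to 16.1 ± 0.435 after amiodarone and 15.5 ± 0.361 in controls (SD, n = 3 each), and the groups overlapped (exact permutation p = 0.2). Within that sum TET2 held 48.5% ± 0.980 after amiodarone and 36.9% ± 0.497 in controls, and TET3 held 47.2% ± 1.06 after amiodarone and 59.3% ± 0.362 in controls. TET2 and TET3 overlapped in the amiodarone libraries, whereas TET3 was the higher of the pair in every control. The log2 ratio of TET3 to TET2 was -0.03 ± 0.054 after amiodarone and 0.60 ± 0.026 in controls, and that of TET1 to TET2 was -2.39 ± 0.035 after amiodarone and -2.07 ± 0.023 in controls (SD, n = 3 each; exact permutation p = 0.1 for both). TET1 had 0.71 or less in every library, so the 1 added to each value weighs heavily in its ratio to TET2. The summed methyltransferase value was 1.60, 1.49 and 1.56 times the summed TET value after amiodarone, against 3.10, 3.14 and 3.19 times in controls.

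TDG, the glycosylase that finishes removal, had 24.53, 25.89 and 28.11 after amiodarone, against 24.51, 23.11 and 22.51 in controls. The lowest amiodarone library and the highest control were almost equal. Means were 26.2 ± 1.81 after amiodarone and 23.4 ± 1.03 in controls (SD, n = 3 each), with a log2 fold change of 0.16 (SE 0.051; limma, adjusted p = 0.0154). The call ended when libraries were scaled to equal sums (0.07, adjusted p = 0.25), without amiodarone replicate 3 (0.10, adjusted p = 0.0618) and without control replicate 3 (0.13, adjusted p = 0.059).

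The order of levels, which are per length, also changed. After amiodarone it ran TDG, UHRF2, DNMT1, TET2, TET3, DNMT3A, UHRF1, DNMT3B and TET1, of which only the neighbours TET2 and TET3 overlapped. In controls it ran DNMT1, TDG, UHRF1, UHRF2, TET3, TET2, DNMT3B, DNMT3A and TET1, of which only DNMT3B and DNMT3A overlapped. UHRF1 thus stood at position 7 after amiodarone and position 3 in controls. UHRF1 also fell further than DNMT1, the enzyme it recruits, by log2 fold change. Their log2 ratio was -1.78, -1.68 and -1.81 after amiodarone and -1.07, -1.02 and -0.90 in controls (exact permutation p = 0.1). 6 ratios between members were compared in all, and each had an adjusted p of 0.1.

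**Figure D3:**
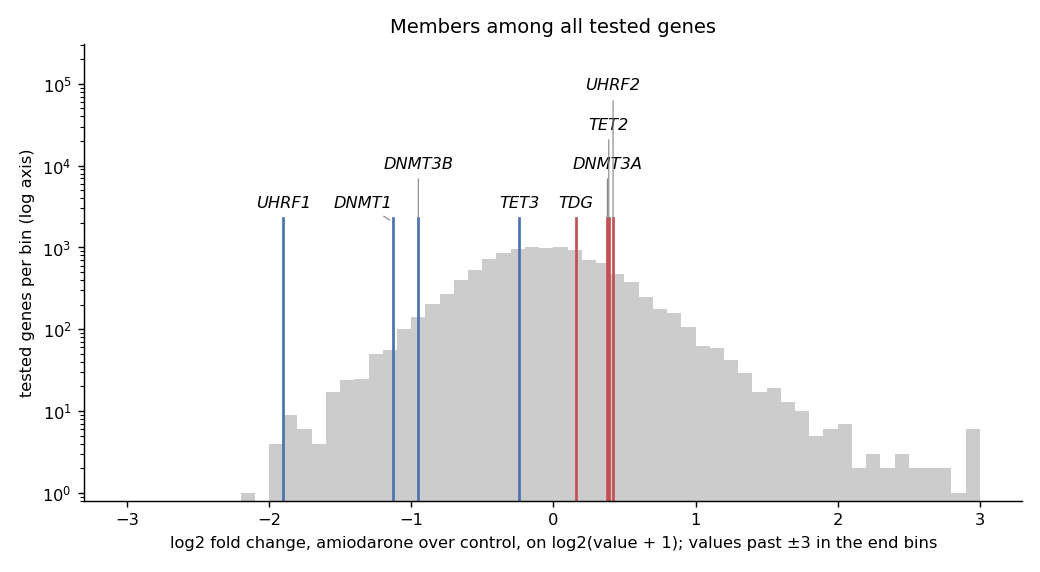
Tested genes (grey bars, log axis) by log2 fold change of amiodarone over control on log2(value + 1), with the 8 tested members as lines (blue for lower, red for higher). UHRF1, DNMT1 and DNMT3B lie in the lower tail, and the other members lie within the bulk.

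The genes most like each member were found by distance between log2(value + 1) profiles centred over the 6 libraries, a measure set mainly by the difference between the groups. UHRF1 was nearest to FEN1, the flap endonuclease of lagging strand synthesis, and MCM3, a subunit of the replicative helicase, at a distance of 0.139 for both. FEN1 had 9.69 ± 0.168 after amiodarone and 38.2 ± 0.431 in controls, and MCM3 had 18.3 ± 0.805 after amiodarone and 69.8 ± 0.754 in controls (SD, n = 3 each). Of the exonic bases of FEN1, 6.7% lie opposite TMEM258. DNMT1 was nearest to P4HA1, a collagen prolyl hydroxylase subunit, and ZMYND19, and DNMT3B to ZC3H4 and CERCAM. UHRF2 was nearest to the lysosomal protease gene CTSB and the proton pump gene ATP6V1E1, TET2 to the ubiquitin-activating enzyme UBA6 and the ERK phosphatase DUSP6, and DNMT3A to the microtubule-severing gene SPAST and NBAS. TET3 was nearest to ATP5F1A, an ATP synthase subunit, and DPM1. TDG was nearest to ORC2, an origin recognition subunit, and LOC102725009, whose groups overlapped.

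S-phase genes fell, as did UHRF1, DNMT1 and DNMT3B. All 22 genes of a list of replication and S-phase genes were called lower, with log2 fold changes from -1.88 to -0.72 and a median of -1.47, where the median of all tested genes was -0.06 and 44.8% were called lower. Of the 22, the cyclin gene CCNE2 passed the filter only through its controls, with 0.32, 0.52 and 0.63 after amiodarone, against 1.97, 2.23 and 1.91 in controls. UHRF1 (-1.90) lay just past the lower end of that range, and DNMT1 (-1.13) and DNMT3B (-0.95) inside it. The helicase gene MCM4 had 15.7 ± 0.192 after amiodarone and 60.7 ± 0.891 in controls, and MCM5 had 36.7 ± 1.14 after amiodarone and 105 ± 1.18 in controls (SD, n = 3 each). E2F1, named after its values were seen because E2F letters were searched above, had 13.3 ± 0.954 after amiodarone and 41.4 ± 0.463 in controls (log2 fold change -1.58; limma, adjusted p = 2.64e-10). The list was chosen with earlier results of these data known, and it holds FEN1 and MCM3, named above as nearest to UHRF1. The summed values of the list were 370 to 372 after amiodarone and 1035 to 1044 in controls. The part of these genes' lower level in the UHRF1, DNMT1 and DNMT3B results was not tested.

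Markers of myeloid maturity differed as well. 7 of 8 promyelocyte markers were lower, where 44.8% of all tested genes were, and 1, CD33, was not called, with summed values of 3229 to 3309 after amiodarone and 7218 to 7344 in controls. Of 8 later myeloid markers 5 were tested and these 5 were called higher, where 33.5% of all tested genes were, among them the calprotectin gene S100A9 (728 ± 23.6 after amiodarone and 240 ± 8.47 in controls) and the integrin gene ITGAM (7.63 ± 0.0902 after amiodarone and 2.29 ± 0.0529 in controls; SD, n = 3 each). The 3 that were not tested, CD14, CSF1R and FCGR3B, had values of 1.26 or less in every library. CSF1R, the receptor of a macrophage growth factor, stood the other way, with 0.50, 0.56 and 0.61 after amiodarone, against 1.26, 0.93 and 1.09 in controls. The summed values of these 8 markers were 1050 to 1096 after amiodarone and 426 to 446 in controls. Their part in the changes of the methylation genes was not tested.

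Partners of maintenance methylation were mostly lower. In a list of them that also held DNMT3L, 11 of 13 were called lower and 1 higher, with a median log2 fold change of -0.69. Over all tested genes 44.8% were lower and 33.5% higher. The sliding clamp gene PCNA, to which DNMT1 binds at the fork, had 55.3 ± 0.211 after amiodarone and 201 ± 6.17 in controls. CDCA7, which brings the remodeller HELLS to chromatin, had 15.2 ± 0.396 after amiodarone and 47.7 ± 1.14 in controls, and the DNA ligase gene LIG1, whose product UHRF1 binds, had 9.72 ± 0.185 after amiodarone and 24.2 ± 0.376 in controls (SD, n = 3 each). CDCA7L had 16.1 ± 0.172 after amiodarone and 32.9 ± 0.841 in controls, although 20.4% of its exonic bases lie opposite DNAH11. KAT5, an acetyltransferase, was the 1 called higher (34.4 ± 1.94 after amiodarone and 24.7 ± 1.79 in controls), and 38.6% of its exonic bases lie opposite RNASEH2C. DNMT3L, a cofactor of DNMT3A and DNMT3B without catalytic activity, is not a maintenance partner. It was not called (2.49 ± 0.434 after amiodarone and 2.63 ± 0.228 in controls). KAT5 and DNMT3L were named after their values were seen.

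Proteins that bind methylated CpG moved in both directions, with 3 of 9 tested members higher, 3 lower and 3 not called, and a median of -0.12, beside 33.5% higher and 44.8% lower over all tested genes. Of the 3 higher, MBD5 passed the filter only through its amiodarone libraries, with 1.12, 1.11 and 1.02 after amiodarone, against 0.58, 0.58 and 0.72 in controls. ZBTB33, which encodes the zinc finger reader Kaiso, had 8.84 ± 0.234 after amiodarone and 7.19 ± 0.0651 in controls. MBD3, a subunit of the NuRD complex, had 26.3 ± 1.56 after amiodarone and 36.9 ± 0.594 in controls, and MBD1 had 11.2 ± 0.958 after amiodarone and 15.1 ± 0.782 in controls (SD, n = 3 each). MBD3 shares 9.8% of its exonic bases with another annotated transcript on its strand. With libraries scaled to equal sums, 5 rather than 3 of the 9 were called lower. The share of all tested genes called lower also rose with that scaling, so the higher count is no result about this list.

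CXXC proteins, whose zinc finger binds unmethylated CpG, were all lower among the 7 tested of 8, with log2 fold changes from -0.72 to -0.23 and a median of -0.50, where 44.8% of all tested genes were called lower. FBXL19 had 14.1 ± 0.425 after amiodarone and 24.0 ± 0.770 in controls. CXXC1, a subunit of the SET1 histone methyltransferase complexes, had 10.9 ± 0.601 after amiodarone and 18.03 ± 0.599 in controls, the demethylase gene KDM2B had 8.22 ± 0.333 after amiodarone and 13.4 ± 0.624 in controls, and CXXC5 had 17.9 ± 0.644 after amiodarone and 25.8 ± 1.09 in controls (SD, n = 3 each). CXXC4, which was not tested, was near 0 in both groups.

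Base excision repair acts after TDG. The list also held other glycosylases, such as UNG, and the GADD45 genes, which are not repair enzymes. Of its 13 tested genes 7 were called lower, 2 higher and 4 were not called, with a median of -0.24. The 2 higher were both GADD45 genes. The 7 of 13 lower are near the 44.8% over all tested genes, of which 33.5% were higher, and are no result about the list. The uracil glycosylase gene UNG had 12.8 ± 0.723 after amiodarone and 47.6 ± 1.22 in controls, a log2 fold change of -1.82 (limma, adjusted p = 4.86e-11). PARP1, which senses strand breaks, had 30.1 ± 0.911 after amiodarone and 74.3 ± 1.08 in controls, and the abasic site endonuclease gene APEX1 had 232 ± 3.74 after amiodarone and 302 ± 2.90 in controls. GADD45B, a stress-induced gene, was higher, with 47.4 ± 0.829 after amiodarone and 31.8 ± 0.523 in controls (SD, n = 3 each). The log2 fold change of TDG, another glycosylase, was 0.16.

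Methylation draws on S-adenosylmethionine. Of 11 tested genes of its cycle 8 were lower and 3 higher, with a median of -0.34, set beside 44.8% and 33.5% of all tested genes. MAT2A, the synthase of the methyl donor outside the liver, had 70.3 ± 2.38 after amiodarone and 243 ± 0.232 in controls, a log2 fold change of -1.77 (limma, adjusted p = 2.96e-12). Of its exonic bases, 12.4% lie opposite GGCX. AHCY, which clears the inhibitory product S-adenosylhomocysteine, had 186 ± 4.91 after amiodarone and 235 ± 2.42 in controls. AMD1, which diverts the donor to polyamine synthesis, had 18.9 ± 0.496 after amiodarone and 33.9 ± 0.450 in controls, and CBS, which draws off homocysteine, had 6.90 ± 0.0551 after amiodarone and 13.4 ± 1.61 in controls (SD, n = 3 each).

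TET enzymes use alpha-ketoglutarate, also called 2-oxoglutarate. Of 9 genes for its supply or use and for TET cofactors 6 were lower, 2 higher and 1 not called, with a median of -0.12. Of all tested genes 44.8% were lower and 33.5% higher. Because genes that use it are in the list, the counts give no direction of supply. The count lower was 4 with median of ratios scaling, where fewer of all tested genes were called lower as well. IDH2, which makes it in mitochondria, had 55.7 ± 2.01 after amiodarone and 97.4 ± 1.18 in controls. OGT, a sugar transferase that binds TET proteins, had 53.4 ± 1.20 after amiodarone and 74.4 ± 2.13 in controls, and WT1, a zinc finger factor that recruits TET2, had 5.50 ± 0.249 after amiodarone and 9.92 ± 0.359 in controls (SD, n = 3 each).

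**Figure D4:**
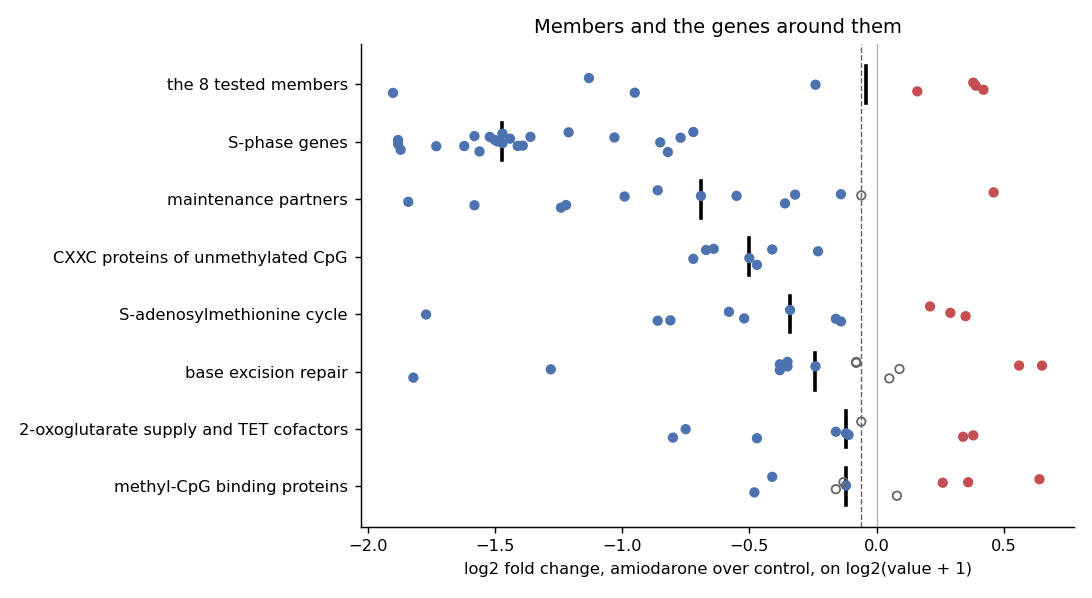
Log2 fold change of amiodarone over control on log2(value + 1) for each tested gene (points; blue for called lower, red for called higher, open for not called) of the members and of 7 gene lists, with each list's median as a black bar and the median of all tested genes, -0.06, as a dashed line. The members spread from -1.90 to 0.42, whereas the 22 S-phase genes lie between -1.88 and -0.72.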

How the data were processed

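6 HL-60 mRNA libraries keep strand, per the labels' protocols. Build GRCh38.p12 and the tools featureCounts, STAR 2.5.3a and fastp 0.23.4 appear in the submitters' processing notes, with no role or order. Whether counting used strand, and with which annotation, is not given in the sources used here. The deposited values, whose unit the file headers do not state, behave like RPKM: they are not whole, their sums differ between libraries (534486 to 574483), and 53.0% to 61.0% of low values of short genes lay within 0.15 of a whole step set by gene length, at the depth chosen to raise this share. Depth is therefore an estimate.

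Values were used as deposited. The 11445 of 17911 genes that reached 1 in 3 or more libraries were tested with limma 3.58.1 in R 4.3.3 (trend) on log2(value + 1), with Benjamini-Hochberg adjustment over all tested genes; the procedure was tested on simulated data. In that simulation far fewer genes were changed than were called here, so it does not show whether the calls in these data hold. Fold changes on log2(value + 1) understate those of low genes. Named genes are the 9 members, up to 4 genes per list with the smallest adjusted p, and the 2 nearest profiles per member. Some genes that this rule names are not reported here. Members and lists were chosen with earlier results of these data known. 13 alternatives were tried, 6 of which left out 1 library. Coordinates are from GENCODE 29 (GRCh38) and promoters from RefSeq (GRCh38.p14).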

Additional observations from a re-analysis of the deposited data

How the results depend on the processing

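Of the members, 4 were called lower and 4 higher. At a minimum value of 5, DNMT3A and DNMT3B were no longer tested and the counts were 3 and 3. With equal sums 3 were higher, without 1 library 3 to 4 were higher and 4 lower, and the other alternatives left 4 and 4. No tested member changed direction in an alternative that tested it. UHRF1 ranged from -2.08 to -1.86, DNMT1 from -1.22 to -1.10, DNMT3B from -1.29 to -0.90, UHRF2 from 0.33 to 0.45, DNMT3A from 0.31 to 0.46, TET2 from 0.31 to 0.45, TET3 from -0.32 to -0.21 and TDG from 0.07 to 0.20 in log2 fold change. Among members still tested, TDG alone lost its call, as given with it. Of its neighbours, ORC2 lost its call under equal sums (0.08) and LOC102725009 under 8 alternatives, with its lowest value under equal sums (0.04). Methyl-CpG binding proteins called lower came to 5 with equal sums, where more of all tested genes were called lower as well. Of the germline genes, 1 was called lower. Without a filter 2 were lower and 2 higher. Over all genes of that fit, the share called in each direction was larger than the share of the germline genes. The germline counts of that fit are therefore no result about these genes. At a minimum value of 5 the count lower was 0. Without 1 library the count lower was 0 to 1, and it was 0 without each control library. Samples with the same replicate number did not deviate together (correlations of -0.155, -0.018 and -0.023), so the number was not taken to pair them. A fit with the replicate block left the log2 fold change of UHRF1 at -1.90 (limma, adjusted p = 7.46e-09), called 4 members lower and 4 higher, and among genes named by rule ended only the call of LOC102725009. Without counts, counting noise at low values such as those of TET1 and DNMT3B cannot be separated from replicate spread.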

Other observations

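Germline genes that promoter methylation is known to silence in somatic cells stayed low. Of 18 listed, 11 had a row, and their summed values were 2.70 to 3.53 in amiodarone libraries and 2.30 to 3.36 in controls. MAGEB2, a cancer-testis antigen gene and the only 1 that passed the filter, had 0.29, 0.59 and 0.56 after amiodarone, against 1.02, 1.35 and 1.38 in controls (log2 fold change -0.61; limma, adjusted p = 2.39e-04). It passed the filter through its control libraries only. In a fit without the filter TEX101, a germ cell surface protein gene, was called higher, with 1, 0.81 and 0.91 after amiodarone, against 0.09, 0.17 and 0.12 in controls (log2 fold change 0.76; limma, adjusted p = 1.41e-05). HORMAD1, a meiotic chromosome axis gene, was called higher, with a value of 0.08 in each amiodarone library, against 0.00, 0.06 and 0.00 in controls (limma, adjusted p = 0.0384). SMC1B, a meiotic cohesin gene, was called lower, with 0.15, 0.29 and 0.23 after amiodarone, against 0.43, 0.49 and 0.80 in controls (limma, adjusted p = 0.0117). At these levels the values rest on few reads. In the fit without the filter, the share of all genes called in each direction was larger than the share of the germline genes. The calls of that fit are therefore no result about the germline genes as a group.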
